A study of Homo sapiens with 17 samples.

Results

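The 10 genes described here, all of steroid metabolism, were followed by name through the RNA libraries: the aldo-keto reductases AKR1C1, AKR1C2 and AKR1C3, the UDP-glucuronosyltransferases UGT2B7, UGT2B10, UGT2B11, UGT2B15, UGT2B17 and UGT2B28, and the steroid reductase SRD5A1. They are 10 of the 23230 genes in the count tables, and all 10 passed the filter on low counts. The list was drawn up with the read counts of these same 6 groups in view. The fold changes and adjusted p-values below therefore describe the genes and are no independent test of them. Some copies within each family are near-identical, so a read can fit several of them. How alike the transcripts of each pair are was not measured here. Whether and how such a read was given to 1 copy is a limit on every single-gene value.

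The cells were LNCaP, an established prostate cancer line that responds to androgen, and LNCaP-abl (abl below), an LNCaP subline labelled androgen independent. LNCaP was grown in 10% serum and used at passages 32 to 34, whereas abl was grown in 10% charcoal-stripped serum, which is low in steroids, and used at passages 62 to 64. Each line received siControl, siCREB1 or siFOXA1 at 40 nM for 3 days, and all 6 groups were in 5% charcoal-stripped serum during treatment. CREB1 is a transcription factor activated by cyclic AMP signalling, and FOXA1 binds closed chromatin and makes sites there accessible to the androgen receptor. Each group had 2 libraries, and nothing in the sources used here says that these came from separate cultures, so p-values measure the spread between these libraries, which may be technical.

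Androgens are made, activated and cleared inside prostate cells by a short chain of enzymes. SRD5A1 reduces testosterone to the stronger androgen dihydrotestosterone, and AKR1C3 reduces androstenedione to testosterone. AKR1C2 turns dihydrotestosterone into a weak diol, and AKR1C1 acts mainly on progesterone and its relatives. UGT2B15 and UGT2B17 attach glucuronic acid to dihydrotestosterone and its diols, which inactivates them and lets them leave the cell. UGT2B28 also conjugates androgens, UGT2B7 takes many steroids and drugs, and UGT2B10 is known for amine drugs. The AKR1C genes lie in 1 cluster and the UGT2B genes in another.

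The stretches upstream of the starts are shown because some copies that differ in level or response have closely alike promoters, AKR1C1 with AKR1C2 and UGT2B10 with UGT2B11. RefSeq promoter windows (GRCh38.p14) were matched for 8 of the 10 genes, with 9 windows since AKR1C3 has 2, and UGT2B17 and UGT2B28 were not matched. Of the 9, the windows of SRD5A1 and the second start of AKR1C3 are counted below but not printed. For the others, the 250 bases before the start are printed 5′ to 3′ on the gene's strand. Capitals mark the forkhead-type letters that FOXA proteins are known to read, searched as TGTTTAC or TGTTTGC or TATTTAC or TATTTGC on either strand.
UGT2B15, chr4:68670653-68670902, minus strand: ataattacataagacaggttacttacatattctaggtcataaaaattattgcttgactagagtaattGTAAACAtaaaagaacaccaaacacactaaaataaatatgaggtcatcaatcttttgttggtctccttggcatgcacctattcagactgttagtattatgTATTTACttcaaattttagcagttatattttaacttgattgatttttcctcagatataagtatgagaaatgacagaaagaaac
UGT2B10, chr4:68815744-68815993, plus strand: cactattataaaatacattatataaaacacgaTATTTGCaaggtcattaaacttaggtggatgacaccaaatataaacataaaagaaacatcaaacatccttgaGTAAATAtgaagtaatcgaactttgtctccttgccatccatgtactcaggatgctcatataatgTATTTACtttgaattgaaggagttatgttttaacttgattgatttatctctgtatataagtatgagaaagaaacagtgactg
UGT2B11, chr4:69214749-69214998, minus strand: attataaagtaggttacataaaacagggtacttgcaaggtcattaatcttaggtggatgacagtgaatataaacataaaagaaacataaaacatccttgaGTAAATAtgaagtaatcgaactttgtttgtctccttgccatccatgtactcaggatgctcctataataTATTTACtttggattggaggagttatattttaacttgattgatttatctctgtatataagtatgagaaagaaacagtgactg
UGT2B7, chr4:69096224-69096473, plus strand: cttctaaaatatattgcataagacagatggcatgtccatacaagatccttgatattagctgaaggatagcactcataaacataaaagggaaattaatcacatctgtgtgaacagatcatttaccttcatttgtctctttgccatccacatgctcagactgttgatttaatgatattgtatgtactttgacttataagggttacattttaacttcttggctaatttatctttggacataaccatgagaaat
AKR1C1, chr10:4963165-4963414, plus strand: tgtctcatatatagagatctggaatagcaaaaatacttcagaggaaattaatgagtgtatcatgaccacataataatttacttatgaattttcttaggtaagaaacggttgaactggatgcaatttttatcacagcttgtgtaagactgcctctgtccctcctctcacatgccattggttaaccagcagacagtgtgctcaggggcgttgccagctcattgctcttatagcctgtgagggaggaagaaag
AKR1C2, chr10:5003858-5004107, minus strand: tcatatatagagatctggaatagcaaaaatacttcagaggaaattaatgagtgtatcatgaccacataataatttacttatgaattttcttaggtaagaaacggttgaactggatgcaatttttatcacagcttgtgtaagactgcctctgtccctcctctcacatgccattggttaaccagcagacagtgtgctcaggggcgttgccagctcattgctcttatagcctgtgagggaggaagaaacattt
AKR1C3, the more upstream window, chr10:5048531-5048780, plus strand: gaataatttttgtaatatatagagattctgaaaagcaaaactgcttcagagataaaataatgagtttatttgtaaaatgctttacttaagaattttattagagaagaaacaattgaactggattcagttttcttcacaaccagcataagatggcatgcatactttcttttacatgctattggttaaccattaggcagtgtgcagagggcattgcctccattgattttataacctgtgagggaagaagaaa

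Aligned end to end, the AKR1C1 and AKR1C2 windows were 96.5% identical and those of UGT2B10 and UGT2B11 90.2%. UGT2B15 was 70.3% identical to UGT2B10 and 71.3% to UGT2B11, and UGT2B7 was 63.8% identical to each of UGT2B10 and UGT2B11. The forkhead-type letters stood in 3 of the 9 windows, those of UGT2B10, UGT2B11 and UGT2B15, against 10.6% of 34788 distinct windows of the same length from all genes. In all 3 windows a match began at position -82 or -83, counted back from the start. These windows are rich in A and T, with 28.4% to 31.2% G or C. The CREB full site TGACGTCA (1.6% of all windows) and its first part TGACG (21.2%) stood in 0 of the 9 windows. The letters TGACNNNGC, the core of the element read by NRF2, stood in the windows of UGT2B10 and UGT2B11 (10.9% of all windows), where in UGT2B10 the match overlaps a forkhead-type match. AGAACA, an androgen receptor half-site, stood in UGT2B15 alone among the 9 (12.4% of all windows). A match describes letters only, and binding at these genes was not analysed here.

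Reads assigned to genes ranged from 9092597 to 37314039 per library, both extremes being siControl libraries of abl. CREB1 stood at 38.7 and 29.8 CPM (gene counts scaled to a common library size with TMM) under LNCaP siCREB1 against 80.9 and 85.3 under siControl. In abl CREB1 stood at 46.3 and 43.9 CPM under siCREB1 against 78.8 and 79.7 under siControl. It was also lower under siFOXA1, at 61.4 and 60.7 CPM in LNCaP and 60.4 and 56.1 in abl. The part of this lower CREB1 in the siFOXA1 values was not tested. FOXA1 stood at 215.1 and 210.7 CPM under LNCaP siFOXA1 against 798.6 and 695.2 under siControl. In abl FOXA1 stood at 195.6 and 229 CPM under siFOXA1 against 556.3 and 503.9 under siControl. Both factors thus kept a larger share of their siControl level in abl, and the part of this in the line differences below was not tested. All 11 luminal prostate markers were measured, at a summed 3794 to 4726 CPM in every library. Of the list for liver, a tissue rich in these enzymes, 9 of 17 genes were tested. The liver list summed to 53.0 to 133 CPM over the libraries, and APOB was its 1 gene at 0 in all of them. The luminal sum hides differences between the lines. Under siControl 3 of the 11 were higher and 6 lower in abl (edgeR adjusted p below 0.05), against 30.5% and 33.1% of all tested genes. Among the lower, KLK3 stood at 70.5 and 73.9 CPM in LNCaP and at 0.361 and 0.111 in abl. The first siControl library of each line held transcripts of neutrophils, with CSF3R at 76 counts in LNCaP and 87 in abl against 0 and 2 in the second libraries. In bulk RNA, fewer cells with a transcript and less of it per cell cannot be told apart.

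**Figure D1:**
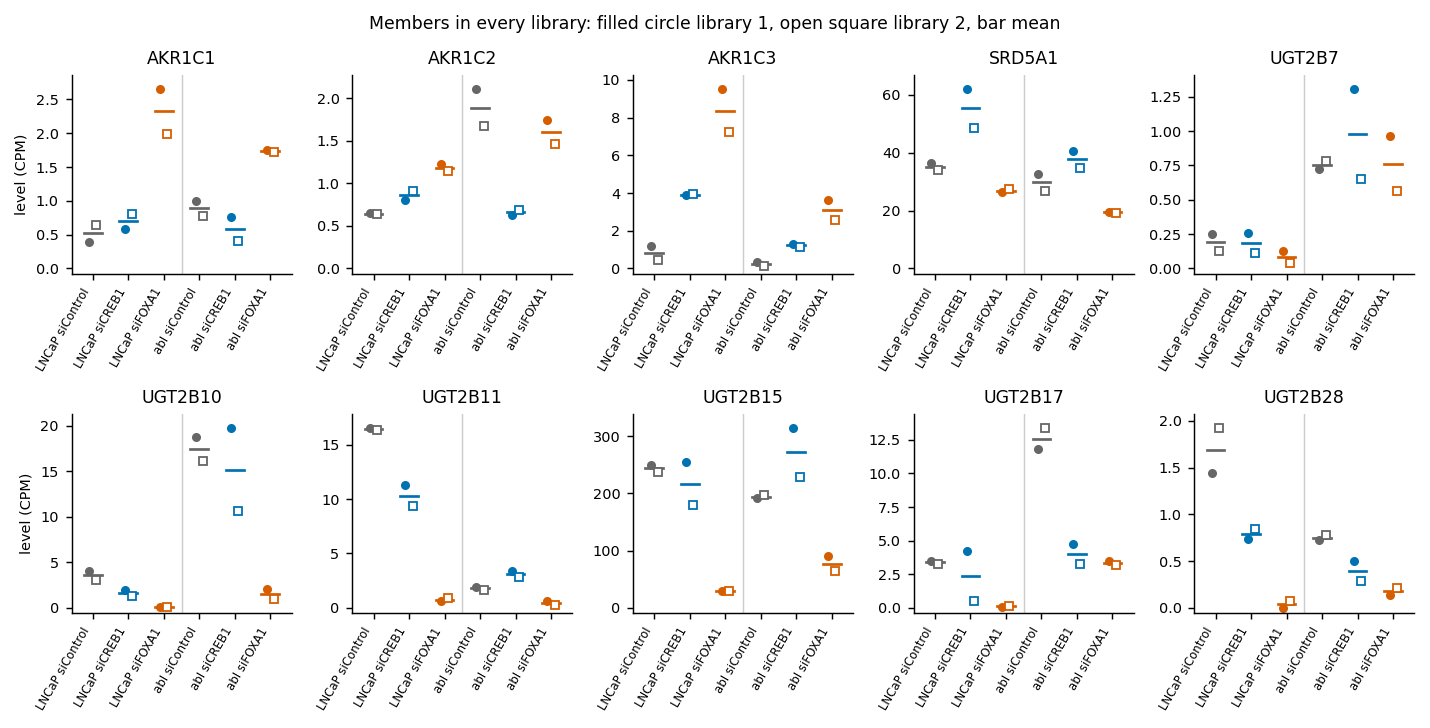
Level of each of the 10 genes in CPM (vertical axis, own scale per gene, linear) in the 6 groups (horizontal axis), with library 1 as a filled circle, library 2 as an open square and a bar at their mean. The UGT2B genes other than UGT2B7 have their lowest mean under siFOXA1 in each line, AKR1C3 is lowest under siControl in each line, and the LNCaP siCREB1 libraries stand apart for UGT2B17.

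Knockdown of FOXA1 lowered the UGT2B genes other than UGT2B7 in both lines and raised AKR1C3. In LNCaP 5 of the 6 UGT2B genes fell, with log2 changes of -3.05 to -5.18, and all 3 AKR1C genes rose. In abl UGT2B10, UGT2B11, UGT2B15, UGT2B17 and UGT2B28 again fell, with log2 changes of -1.33 to -3.59, and AKR1C1 and AKR1C3 rose. SRD5A1 fell in both. Of the 10 genes, 3 were called higher and 6 lower in LNCaP, where 49.8% of all 15550 tested genes were called (24.4% higher and 25.5% lower). In abl 2 were called higher and 6 lower, where 56.5% of all genes were called (29.9% higher and 26.5% lower). Because these contrasts were in view when the genes were picked, nothing is read from the counts against those shares. Called means an adjusted p below 0.05 in edgeR's quasi-likelihood test, with Benjamini-Hochberg adjustment over all tested genes, and changes are given with their standard error (SE).

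UGT2B15, which conjugates dihydrotestosterone, stood at 249.99 and 238 CPM in the LNCaP siControl libraries and at 30.1 and 28.7 under siFOXA1. In abl it stood at 191 and 196 CPM under siControl and at 89.7 and 64.7 under siFOXA1. The groups did not overlap in either line, and the level left in abl was above that left in LNCaP in every library. On the log2 scale UGT2B15 fell by 3.05 ± 0.19 in LNCaP (SE, edgeR adjusted p = 2.24e-08), and the abl change was -1.33 ± 0.17 (adjusted p = 1.77e-05).

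UGT2B17, its close copy, stood at 3.50 and 3.27 CPM under LNCaP siControl and at 0.084 and 0.115 under siFOXA1, on 2 and 3 counts. In abl it stood at 11.8 and 13.4 CPM under siControl and 3.45 and 3.20 under siFOXA1. The called log2 changes were -5.01 ± 0.95 in LNCaP (edgeR adjusted p = 0.000647), against -1.90 ± 0.44 for abl (adjusted p = 0.00195). With so few counts the LNCaP fold is loose: siControl was 34.1 times siFOXA1 with a 95% counting interval of 14.3 to 106.5. The sum of UGT2B15 and UGT2B17, which does not depend on how counted reads were split between them, fell by 3.07 ± 0.19 in LNCaP and changed by -1.36 ± 0.17 in abl. Reads fitting both that were left out before counting, if any, would be missing from the sum too. Most of that sum came from reads given to UGT2B15.

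UGT2B28 stood at 1.44 and 1.92 CPM under LNCaP siControl, on 40 and 30 counts, and at 0 and 2 counts under siFOXA1. It fell by 5.18 ± 0.58 (edgeR adjusted p = 7.29e-06). The siControl level was 40.3 times the siFOXA1 level, with a counting interval of 10.8 to 339. Leaving out the second siFOXA1 library left 0 counts and a fitted -8.25, which is no bound, and leaving out the first gave -4.31. In abl UGT2B28 stood at 0.722 and 0.780 CPM under siControl and 0.138 and 0.216 under siFOXA1, a called log2 change of -2.02 ± 0.53 (edgeR adjusted p = 0.00474). That call was lost without the first abl siControl library (-2.09, adjusted p = 0.0516).

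UGT2B10 and UGT2B11, the pair with near-identical upstream windows, both fell. UGT2B10 stood at 4.08 and 3.07 CPM under LNCaP siControl and 0.084 and 0.115 under siFOXA1, a called log2 change of -5.12 ± 0.67 (edgeR adjusted p = 2.89e-05). Those siFOXA1 libraries held 2 and 3 counts, and the siControl level was 37.1 times theirs with a counting interval of 15.6 to 116. In abl it stood at 18.8 and 16.2 CPM under siControl and 2.02 and 0.9502 under siFOXA1, a called log2 change of -3.59 ± 0.33 (adjusted p = 7.09e-07). Without the first abl siFOXA1 library the change was -4.21. UGT2B11 stood at 16.5 and 16.3 CPM under LNCaP siControl and 0.590 and 0.879 under siFOXA1, a called log2 change of -4.46 ± 0.23 (edgeR adjusted p = 5.5e-09). In abl UGT2B11 stood at 1.94 and 1.67 CPM under siControl and 0.643 and 0.216 under siFOXA1, a called log2 change of -2.13 ± 0.37 (adjusted p = 0.000218). Either abl siFOXA1 library alone moved that value, to -3.08 without the first and -1.53 without the second. For both genes all siFOXA1 libraries lay below all siControl libraries of their line.

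UGT2B7 was the UGT2B gene not called. Its 2 LNCaP siControl libraries held 7 and 2 counts and its siFOXA1 libraries 3 and 1, so the LNCaP value of -1.31 ± 0.91 (edgeR adjusted p = 0.257) left a difference undetectable at this depth. In abl UGT2B7 stood at 0.722 and 0.780 CPM under siControl and at 0.965 and 0.562 under siFOXA1, with a log2 change of 0.04 ± 0.45 (adjusted p = 0.952). The abl groups overlapped.

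AKR1C3, which makes testosterone from androstenedione, stood at 1.19 and 0.448 CPM under LNCaP siControl and at 9.53 and 7.23 under siFOXA1. In abl it stood at 0.361 and 0.111 CPM under siControl, on 13 and 1 counts, and at 3.63 and 2.59 under siFOXA1. Its rise was 3.19 ± 0.30 in LNCaP (edgeR adjusted p = 1.15e-06), and 3.31 ± 0.42 was the abl value (adjusted p = 1.45e-05). In both lines the first siControl library, the one with neutrophil transcripts, was the higher of its pair. Their part in the AKR1C3 level was not tested. Without those libraries the rise was as called and larger, at 4.22 in LNCaP and 4.74 in abl. The abl value then rests on 1 siControl count, with a ratio of 27.8 and a counting interval of 4.90 to 1105.

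AKR1C1, which acts on progesterone, stood at 0.397 and 0.640 CPM under LNCaP siControl and at 2.66 and 1.99 under siFOXA1, a rise of 2.23 ± 0.34 (edgeR adjusted p = 0.000116). In abl it stood at 1.00 and 0.780 CPM under siControl and at 1.75 and 1.73 under siFOXA1, a rise of 0.88 ± 0.32 (adjusted p = 0.0319). AKR1C2, which turns dihydrotestosterone into a diol, stood at 0.650 and 0.640 CPM under LNCaP siControl and 1.22 and 1.15 under siFOXA1, a rise of 0.87 ± 0.29 (edgeR adjusted p = 0.0232). These 2 smaller calls needed every library: leaving out any 1 of the 4 libraries compared gave adjusted p-values of 0.0868 to 0.112 for AKR1C1 in abl and 0.0569 to 0.108 for AKR1C2 in LNCaP. Both also missed with DESeq2 (adjusted p = 0.132 and 0.152). In abl AKR1C2 stood at 2.11 and 1.67 CPM under siControl and 1.75 and 1.47 under siFOXA1, with overlapping groups and a log2 change of -0.30 ± 0.23 (adjusted p = 0.286). Summed, AKR1C1 and AKR1C2 rose by 1.62 ± 0.24 in LNCaP (adjusted p = 7.35e-05), while the abl sum changed by 0.20 ± 0.21 (adjusted p = 0.448). The split of their counts, on 20 to 112 counts a library, placed 63.4% and 68.5% of them in AKR1C1 in the LNCaP siFOXA1 libraries and 37.9% in the first siControl library, with 10 of 20 counts in the second. The 95% exact counting intervals overlapped except between the first libraries, where siControl reached up to 57.7% and siFOXA1 began at 58.0%.

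SRD5A1, which makes dihydrotestosterone, stood at 36.4 and 34.1 CPM under LNCaP siControl and at 26.3 and 27.5 under siFOXA1. In abl it stood at 32.7 and 26.7 CPM under siControl and at 19.6 and 19.1 under siFOXA1. Groups did not overlap in either line, and the called changes of SRD5A1 were -0.39 ± 0.12 in LNCaP (edgeR adjusted p = 0.0161), against -0.65 ± 0.13 for abl (adjusted p = 0.000639). The LNCaP call was lost without the first siControl library (-0.32, adjusted p = 0.104), the first siFOXA1 library (-0.34, adjusted p = 0.111) or the second (-0.40, adjusted p = 0.059).

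**Figure D2:**
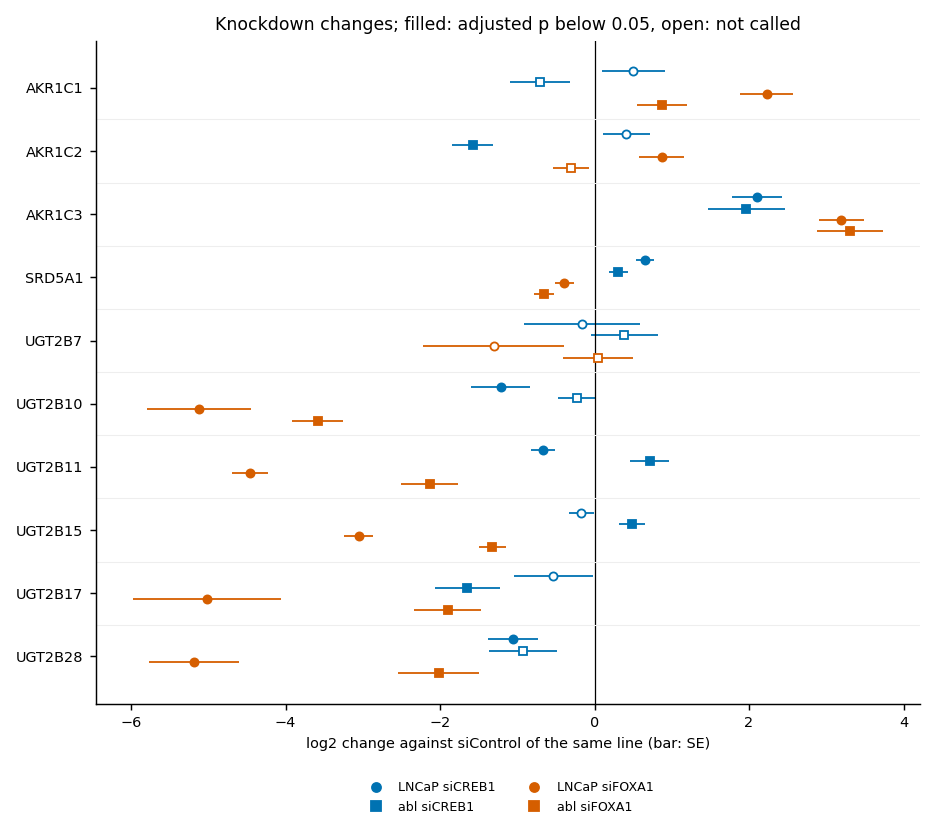
Log2 change of each gene (vertical axis) against siControl of the same line (horizontal axis), with bars for the standard error, circles for LNCaP, squares for abl, blue for siCREB1, orange for siFOXA1, and filled symbols for an adjusted p below 0.05. Under siFOXA1 the called UGT2B values lie between -5.18 and -1.33, whereas AKR1C3 lies between 1.96 and 3.31 in all 4 knockdowns.

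After knockdown of CREB1, AKR1C3 and SRD5A1 rose in both lines. In LNCaP UGT2B10, UGT2B11 and UGT2B28 fell, whereas in abl UGT2B17 and AKR1C2 fell and UGT2B11 and UGT2B15 rose. Of the 10 genes, 2 were called higher and 3 lower in LNCaP, where 37.6% of all tested genes were called (17.8% higher and 19.8% lower). In abl 4 were called higher and 2 lower, where 51.2% were called (27.5% higher and 23.7% lower). The siCREB1 and siFOXA1 contrasts of a line share their siControl libraries.

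AKR1C3 stood at 3.90 and 3.94 CPM in the LNCaP siCREB1 libraries and rose by 2.104 ± 0.32 (edgeR adjusted p = 0.0002). In abl AKR1C3 stood at 1.31 and 1.13 CPM and rose by 1.96 ± 0.50 (adjusted p = 0.0047). Both groups lay above every siControl library of their line. Without the first siControl libraries the rise was 3.13 in LNCaP and 3.39 in abl, the latter over 1 count (ratio 10.9, counting interval 1.88 to 438). SRD5A1 stood at 62.0 and 48.6 CPM in LNCaP and rose by 0.65 ± 0.12 (edgeR adjusted p = 0.000725). In abl SRD5A1 stood at 40.7 and 34.7 CPM, and its rise of 0.31 ± 0.12 lay at the threshold (adjusted p = 0.0498). It missed with other scalings (0.0661 with DESeq2 size factors and 0.051 with total counts), and without the second siControl library (0.20, adjusted p = 0.249) or the first siCREB1 library (0.20, adjusted p = 0.302).

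Of the other AKR1C genes, AKR1C2 was called in abl and AKR1C1 in neither line. AKR1C2 stood at 0.631 and 0.689 CPM in the abl siCREB1 libraries, below both siControl libraries, and fell by 1.58 ± 0.27 (edgeR adjusted p = 0.000229). In LNCaP it stood at 0.810 and 0.912 CPM, with a change of 0.41 ± 0.30 (adjusted p = 0.344). AKR1C1 stood at 0.766 and 0.405 CPM in abl (-0.70 ± 0.39, edgeR adjusted p = 0.147) and at 0.589 and 0.802 CPM in LNCaP (0.50 ± 0.41, adjusted p = 0.365). Neither AKR1C1 value was called, although the sum of AKR1C1 and AKR1C2 fell by 1.23 ± 0.24 in abl (adjusted p = 0.000677).

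The 2 LNCaP siCREB1 libraries differed 8.22-fold in UGT2B17, the widest ratio between paired libraries among the 10 genes where both held counts. Under LNCaP siCREB1 it stood at 4.20 CPM (114 counts) in the first library and at 0.511 CPM (14 counts) in the second, with siControl at 3.50 and 3.27. The log2 change was -0.54 ± 0.51 (edgeR adjusted p = 0.441). With the second library left out the value was 0.32 (adjusted p = 0.337), and with the first left out it was -2.70 and called (adjusted p = 0.000216). UGT2B15 in the same 2 libraries stood at 254 and 180 CPM, so UGT2B17 made up 1.62% of the counts of the pair in the first (95% exact binomial interval 1.34% to 1.95%) and 0.284% in the second (0.155% to 0.475%). Both siControl libraries stood between, at 1.38% and 1.35%. In abl UGT2B17 stood at 4.73 and 3.24 CPM under siCREB1 and fell by 1.65 ± 0.42 (edgeR adjusted p = 0.00502), and its share of the pair's counts went from 5.83% and 6.38% to 1.49% and 1.395%. The abl call was lost without the second siCREB1 library (-1.38, adjusted p = 0.0531) and with DESeq2 (-1.68, adjusted p = 0.0768).

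**Figure D3:**
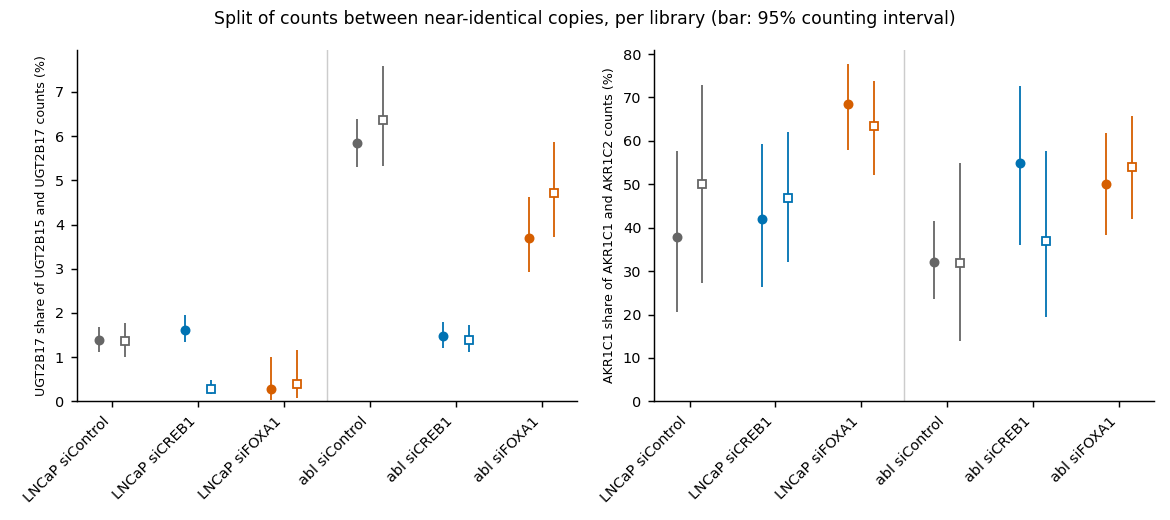
Left, UGT2B17 as a percentage of the counts given to UGT2B15 and UGT2B17; right, AKR1C1 as a percentage of the counts given to AKR1C1 and AKR1C2, per library, with 95% exact binomial intervals that cover counting error only. The 2 abl siControl libraries sit at 5.83% and 6.38% for UGT2B17, above all others, and the LNCaP siCREB1 libraries are apart at 1.62% and 0.284%.

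UGT2B15 stood at 314 and 229 CPM in the abl siCREB1 libraries, above both siControl libraries, and rose by 0.49 ± 0.17 (edgeR adjusted p = 0.0253). In LNCaP, with 254 and 180 CPM, its groups overlapped and the change was -0.17 ± 0.17 (adjusted p = 0.448). UGT2B11 stood at 3.38 and 2.79 CPM in abl and rose by 0.71 ± 0.25 (edgeR adjusted p = 0.0277). In LNCaP UGT2B11 stood at 11.3 and 9.41 CPM and fell by 0.67 ± 0.16 (adjusted p = 0.00447). The 2 abl rises were lost without either siControl library or the first siCREB1 library (UGT2B15 adjusted p = 0.0726 to 0.294, UGT2B11 adjusted p = 0.0726 to 0.144), and UGT2B15 with DESeq2 (adjusted p = 0.1). The LNCaP fall of UGT2B11 was lost without the second siCREB1 library (-0.53, adjusted p = 0.0725).

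UGT2B10 stood at 1.91 and 1.24 CPM in the LNCaP siCREB1 libraries and fell by 1.22 ± 0.38 (edgeR adjusted p = 0.022). UGT2B28 stood at 0.736 and 0.839 CPM and fell by 1.05 ± 0.33 (adjusted p = 0.0208). Both groups lay below siControl. UGT2B10 was no longer called without the first siControl library (-0.94, adjusted p = 0.183) or the second siCREB1 library (-0.92, adjusted p = 0.165), nor UGT2B28 without the second siControl library (-0.87, adjusted p = 0.0944) or either siCREB1 library (-0.94 and -1.14, adjusted p = 0.125 and 0.0755). In abl UGT2B10 stood at 19.7 and 10.6 CPM (-0.23 ± 0.25, edgeR adjusted p = 0.459) and UGT2B28 at 0.496 and 0.284 CPM (-0.93 ± 0.44, adjusted p = 0.0978). UGT2B7 was not called under siCREB1, at -0.17 ± 0.75 in LNCaP and 0.39 ± 0.43 in abl (edgeR adjusted p = 0.884 and 0.485).

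Set directly against each other, the 2 knockdowns left different amounts of some of the conjugating and reducing enzymes. Under siCREB1 in LNCaP 6 genes were higher than under siFOXA1 and 2 lower, where 43% of all tested genes were called (20.6% higher and 22.5% lower). In abl 4 were higher and 3 lower, where 41% were called (20% higher and 21% lower). UGT2B17 was not called in abl, at 0.26 ± 0.48 with overlapping groups (edgeR adjusted p = 0.713). Neither were UGT2B28 and UGT2B7 there (adjusted p = 0.161 and 0.557), nor AKR1C2 and UGT2B7 in LNCaP (adjusted p = 0.18 and 0.332). UGT2B15, UGT2B10, UGT2B11 and SRD5A1 were higher under siCREB1 in both lines, with UGT2B15 at 2.88 ± 0.19 in LNCaP and 1.81 ± 0.17 in abl (edgeR adjusted p = 3.86e-08 and 2.19e-06). SRD5A1 differed by 1.04 ± 0.12 and 0.96 ± 0.12 (adjusted p = 8.05e-06 and 3.5e-05). AKR1C3 was lower under siCREB1, with differences of -1.09 ± 0.22 in LNCaP and -1.35 ± 0.31 in abl (edgeR adjusted p of 0.00127 and 0.00342).

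Before any knockdown the 2 lines already differed in which copies they expressed. Under siControl abl had more UGT2B10, UGT2B17, UGT2B7 and AKR1C2 than LNCaP, and less UGT2B11, UGT2B28 and AKR1C3. That is 4 genes higher and 3 lower in abl, where 63.6% of all tested genes were called (30.5% higher and 33.1% lower). UGT2B11 had the lowest value, -3.13 ± 0.21 (edgeR adjusted p = 1.34e-08), from 16.5 and 16.3 CPM in LNCaP to 1.94 and 1.67 in abl. UGT2B10 had the highest, 2.27 ± 0.29 (adjusted p = 1.04e-05), from 4.08 and 3.07 to 18.8 and 16.2 CPM. The 2 genes with 90.2% identical upstream windows thus lay in opposite order in the 2 lines.

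UGT2B17 was 1.86 ± 0.44 log2 units higher in abl (edgeR adjusted p = 0.00199), as was AKR1C2 by 1.61 ± 0.27 (adjusted p = 0.000148). UGT2B28 was lower, at -1.15 ± 0.35 (adjusted p = 0.0105), and UGT2B7 higher, at 1.81 ± 0.59, on 33 counts against 9 (adjusted p = 0.0161). AKR1C3 stood at -1.54 ± 0.54 (edgeR adjusted p = 0.0214), but its value was -0.51 (adjusted p = 0.583) without the first LNCaP siControl library -2.95 (adjusted p = 0.0581) without the first abl one and -1.32 (adjusted p = 0.0571) without the second abl one. UGT2B28 and UGT2B7 were also lost without the first abl siControl library (adjusted p = 0.149 and 0.099), UGT2B28 also with DESeq2 (adjusted p = 0.104), and UGT2B7 without the second LNCaP one (adjusted p = 0.0613). UGT2B15 and SRD5A1 were not called, at -0.34 ± 0.17 and -0.21 ± 0.12 (adjusted p = 0.0963 and 0.147, with UGT2B15 called at 0.0233 under the replicate block), nor AKR1C1, at 0.94 ± 0.41 (adjusted p = 0.058). Of the sums of copies, AKR1C1 with AKR1C2 was higher in abl by 1.35 ± 0.25 (adjusted p = 0.000277), whereas the UGT2B sums were not called: UGT2B15 with UGT2B17 differed by -0.26 ± 0.17 (adjusted p = 0.188), and UGT2B7, UGT2B10, UGT2B11 and UGT2B28 together by -0.06 ± 0.22 (adjusted p = 0.844).

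The response to siFOXA1 was then compared between the lines within the same model, with abl minus LNCaP as the difference. FOXA1 itself kept a larger share of its siControl level in abl, and the part of this in the differences was not tested. The fall of UGT2B15, UGT2B11 and UGT2B28 was smaller in abl, the rise of AKR1C1 was smaller too, and AKR1C2 rose in LNCaP but was not called in abl (-0.30 ± 0.23). Of the 10 genes, 3 had a higher and 2 a lower value in abl, where 32.6% of all tested genes differed (17.9% higher and 14.7% lower). UGT2B15 differed by 1.73 ± 0.25 (edgeR adjusted p = 0.000131), which kept its call with each library left out in turn. UGT2B11 differed by 2.33 ± 0.54 (adjusted p = 0.0044) and UGT2B28 by 3.17 ± 1.00 (adjusted p = 0.0259), AKR1C1 by -1.35 ± 0.49 (adjusted p = 0.0479) and AKR1C2 by -1.17 ± 0.37 (adjusted p = 0.0267). The AKR1C1 and AKR1C2 differences were each lost without any of 6 of the 8 libraries compared (adjusted p = 0.0589 to 0.324 and 0.0547 to 0.191), whereas their sum, on more counts, differed by -1.42 ± 0.32 (adjusted p = 0.00353). UGT2B28 was lost without the first LNCaP siFOXA1 library, the first abl siControl library or the second abl siFOXA1 library (adjusted p = 0.0648 to 0.148). The UGT2B11 difference rested on the first abl siFOXA1 library, without which it was 1.36 (adjusted p = 0.21). For AKR1C3 the difference was 0.11 ± 0.55 (adjusted p = 0.903), an interval too wide to show that both lines respond alike.

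For siCREB1 the line difference was called for AKR1C2, at -1.99 ± 0.40 (edgeR adjusted p = 0.00267), and for UGT2B11, at 1.38 ± 0.29 (adjusted p = 0.00358). That is 1 gene higher and 1 lower of the 10, where 25.5% of all tested genes differed (14.8% higher and 10.8% lower). CREB1 itself kept a larger share of its siControl level in abl, and the part of this in the differences was not tested. UGT2B15 differed by 0.66 ± 0.24 (adjusted p = 0.0552) and missed the threshold, but was called with the replicate block (0.66, adjusted p = 0.00972), without a low-count filter (0.67, adjusted p = 0.00356) and without the first LNCaP or second abl siCREB1 library (0.92 and 0.86, adjusted p = 0.0171 and 0.0197). AKR1C3 and SRD5A1, which rose in both lines, differed by -0.14 ± 0.71 and -0.34 ± 0.17 (adjusted p = 0.92 and 0.165). Not called either were UGT2B28, at 0.13 ± 0.58, UGT2B10, at 0.98 ± 0.45, and UGT2B17, at -1.11 ± 0.67 (edgeR adjusted p = 0.916, 0.135 and 0.254). UGT2B10 was called with the replicate block (0.96, adjusted p = 0.0233) and without a low-count filter (0.99, adjusted p = 0.0367).

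**Figure D4:**
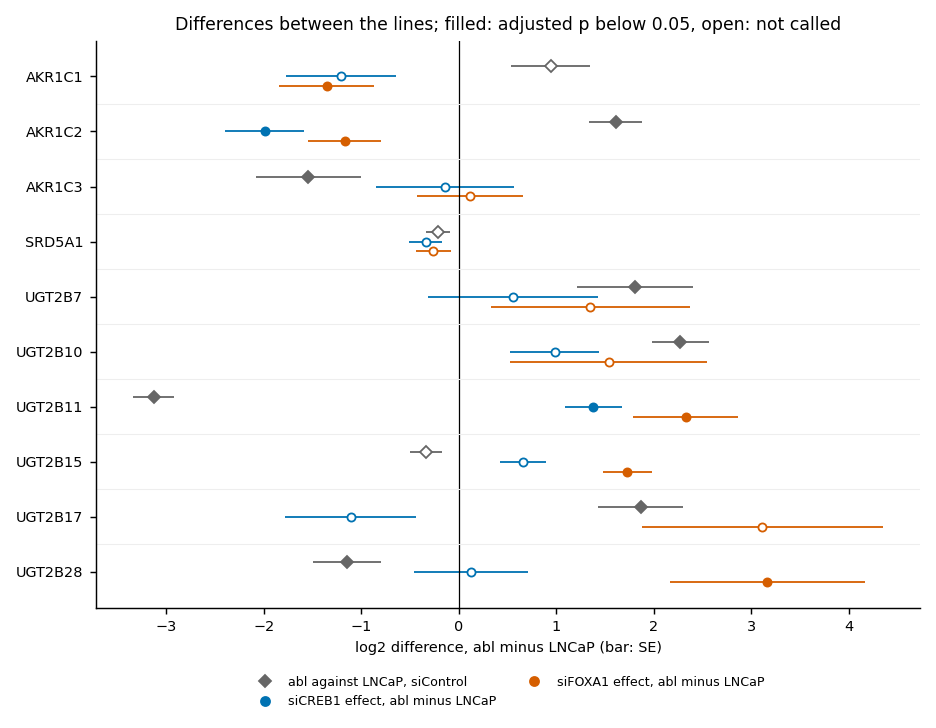
Log2 difference of abl minus LNCaP (horizontal axis) for each gene (vertical axis), with bars for the standard error: diamonds for the siControl level, blue circles for the siCREB1 effect and orange circles for the siFOXA1 effect, filled for an adjusted p below 0.05. UGT2B11 stands at -3.13 for the siControl level and at 1.38 and 2.33 for the 2 effects, and AKR1C2 at 1.61, -1.99 and -1.17.

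Genes next to the listed members in the order of protein-coding genes, whatever the distance, were read in the same fit. UGT2B4, a liver UGT2B gene next to the listed UGT2B genes but no member of the list, went from 41 and 25 counts under LNCaP siControl to 2 and 0 under siFOXA1 (edgeR adjusted p = 6.94e-05). In abl UGT2B4 changed by -4.14 ± 0.47 under siFOXA1 and by -1.44 ± 0.33 under siCREB1 (adjusted p = 4.62e-06 and 0.00249). UGT2A3, which lies among the UGT2B genes, rose under siFOXA1 by 2.78 ± 0.32 in abl (adjusted p = 5.71e-06), and in LNCaP it went from 2 and 0 counts to 6 and 9 (adjusted p = 0.018). TMPRSS11E, a serine protease gene at the edge of the cluster, rose by 1.18 ± 0.30 and 1.99 ± 0.25 (adjusted p = 0.0048 and 1.3e-05). YTHDC1, on the far side of it, was at -0.13 ± 0.06 and 0.00 ± 0.06. KLF6, a zinc-finger transcription factor gene separated from the AKR1C genes by AKR1E2, rose in all 4 knockdowns: by 0.57 ± 0.12 under LNCaP siCREB1 and 0.70 ± 0.12 under LNCaP siFOXA1, and by 0.66 ± 0.13 under abl siCREB1 and 0.45 ± 0.13 under abl siFOXA1 (edgeR adjusted p = 0.0019, 0.000229, 0.000608 and 0.00774). The AKR1C relatives AKR1C4 and AKR1E2 had 6 and 0 counts over all 12 libraries.

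The rest of the pathway was described by lists of related genes, given as how many passed the test in each direction. Of all tested genes 24.4% were higher and 25.5% lower under LNCaP siFOXA1, and 29.9% and 26.5% under abl siFOXA1. Under siCREB1 the shares were 17.8% and 19.8% in LNCaP and 27.5% and 23.7% in abl. The lists were chosen with earlier results known, so nothing is read from their counts against these shares. Of 16 other UDP-glucuronosyltransferases 6 were tested, and under siFOXA1 4 rose and 1 fell in LNCaP and 5 rose and 1 fell in abl. The 1 that fell was UGT2B4 in each line. The UGT1A genes among those that rose are few counts: UGT1A7 had 0 counts in every siControl and siCREB1 library, 20 and 20 under LNCaP siFOXA1, and 3 and 6 under abl siFOXA1. UGT1A6 had 28 and 28 counts under abl siFOXA1 against 1 and 2 under siControl. UGT1A genes share exons, so their single values are uncertain, and these 2 were picked after their counts were seen. Under siCREB1 0 of the 6 rose in either line, and UGT2B4 alone fell, in abl.

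Of 7 genes that supply or remove glucuronic acid, 3 rose and 2 fell under LNCaP siFOXA1 and 3 rose and 3 fell under abl siFOXA1, with medians of 0.08 in each. Under siCREB1 it was 1 and 1 in LNCaP, and 1 and 5 in abl, with a median of -0.39 in abl. UGDH, which makes UDP-glucuronic acid, the sugar donor of the UGT enzymes, changed by -0.41 ± 0.09 under LNCaP siFOXA1 and by -0.62 ± 0.08 under abl siCREB1 (edgeR adjusted p = 0.0013 and 2.48e-05). Median changes of all tested genes lay between -0.007 and 0.027 in the 4 knockdowns.

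Upstream of these enzymes, 9 of 16 genes of steroid supply and androgen synthesis were tested. Under siFOXA1 6 rose in LNCaP and 7 in abl, and under siCREB1 3 rose in LNCaP and 6 in abl, with 0 falling in any of the 4 and medians of 0.22 to 0.83. TSPO, a mitochondrial protein linked to cholesterol transport, rose by 1.78 ± 0.17 under abl siCREB1 and 1.81 ± 0.17 under abl siFOXA1 (edgeR adjusted p = 1.11e-06 and 6.22e-07). FDX1, the electron donor of mitochondrial steroid enzymes, rose by 1.17 ± 0.08 under LNCaP siFOXA1 (adjusted p = 4.56e-08). Of 18 tested hydroxysteroid dehydrogenases, 6 rose and 4 fell under LNCaP siFOXA1, 9 and 3 under abl siFOXA1, 3 and 5 under LNCaP siCREB1, and 5 and 1 under abl siCREB1. HSD11B2, which inactivates cortisol, rose under siFOXA1 in both lines, by 1.22 ± 0.10 and 1.36 ± 0.10 (adjusted p = 4.17e-07 and 9.18e-08). RDH11, a retinol dehydrogenase, fell by 2.05 ± 0.06 in LNCaP (adjusted p = 4.4e-11).

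The 3 other tested genes on the list of 5-alpha and 5-beta reductases counted 0 higher and 2 lower under LNCaP siFOXA1 and 1 and 1 under abl siFOXA1, with medians of -0.18 and -0.07 under siCREB1 in LNCaP and abl. Of the 2 lower in LNCaP, AKR1D1 lay near the floor, at a mean of 0.302 CPM against 0.703 under siControl (edgeR adjusted p = 0.0496). SRD5A3, which acts in glycosylation, fell by 0.35 ± 0.07 under abl siFOXA1 (edgeR adjusted p = 0.0005). Of the 4 tested other aldo-keto reductases, 1 rose under LNCaP siFOXA1, 2 under abl siFOXA1, 1 under LNCaP siCREB1 and 2 under abl siCREB1, with 0 falling. AKR1A1, an aldehyde reductase, rose by 1.25 ± 0.07 under abl siFOXA1 and by 0.27 ± 0.07 under LNCaP siFOXA1 (adjusted p = 1.02e-08 and 0.00688).

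Sulfation and desulfation genes, 11 of them tested, counted 3 higher and 1 lower under LNCaP siFOXA1, 5 and 2 under abl siFOXA1, 1 and 2 under LNCaP siCREB1, and 4 and 2 under abl siCREB1. SULT1A1, a phenol sulfotransferase, rose in all 4, by 0.57 to 1.25 on the log2 scale, and STS, the steroid sulfatase, fell by 1.18 ± 0.12 under LNCaP siFOXA1 (edgeR adjusted p = 1.99e-06). Of 10 tested steroid and conjugate transporters outside the NRF2 list, 4 rose and 1 fell under LNCaP siFOXA1, 5 and 0 under abl siFOXA1, 0 and 1 under LNCaP siCREB1, and 4 and 0 under abl siCREB1. ABCG2, an exporter of sulfate and glucuronide conjugates, rose by 3.24 ± 0.25 under LNCaP siFOXA1 and by 3.50 ± 0.26 under abl siFOXA1 (adjusted p = 2.36e-07 and 9.56e-08).

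Genes known to respond to NRF2, a stress factor that also drives AKR1C genes in other cells, were all 24 tested. Under siFOXA1 18 rose and 1 fell in LNCaP and 14 rose and 4 fell in abl, with medians of 0.42 and 0.50. Under siCREB1 8 rose and 3 fell in LNCaP and 9 rose and 8 fell in abl, with medians of 0.14 and 0.11. GCLC, which makes glutathione, rose by 1.079 ± 0.12 under LNCaP siFOXA1, and SLC7A11, the cystine importer, fell by 2.96 ± 0.13 under abl siFOXA1 (edgeR adjusted p = 6.07e-06 and 8.06e-10). The part of NRF2 in the AKR1C values was not tested.

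Of 15 tested genes for the androgen receptor and its targets, 5 rose and 6 fell under LNCaP siFOXA1, 3 and 5 under abl siFOXA1, 3 and 3 under LNCaP siCREB1, and 9 and 1 under abl siCREB1. ACPP, the prostatic acid phosphatase, fell by 4.36 ± 0.15 under LNCaP siFOXA1, and SLC45A3 fell by 2.37 ± 0.19 under abl siFOXA1 (edgeR adjusted p = 1.37e-10 and 1.83e-07). The 9 tested liver genes counted 3 higher and 2 lower under LNCaP siFOXA1, 3 and 4 under abl siFOXA1, 2 and 1 under LNCaP siCREB1, and 3 and 2 under abl siCREB1. TTR, transthyretin, fell by 1.98 ± 0.41 under abl siFOXA1 (adjusted p = 0.000973). The summed level of the liver list was 77.2 to 83.3 CPM under LNCaP siFOXA1 against 53.0 to 56.9 under siControl, and 128 to 133 against 65.5 to 70.0 in abl, and its part in the UGT2B values was not tested. Among marker lists of cell types, the 11 luminal genes counted 4 higher and 2 lower under LNCaP siFOXA1, 3 and 2 under abl siFOXA1, 2 and 2 under LNCaP siCREB1, and 4 and 2 under abl siCREB1. In the same order the 3 tested basal genes counted 2 and 1, 2 and 1, 0 and 2, and 0 and 1, the 4 tested fibroblast genes 1 and 2, 2 and 0, 1 and 1, and 1 and 0, and the 6 tested blood and endothelial genes 0 and 4, 0 and 2, 0 and 4, and 1 and 3. Their summed levels over the libraries ran from 33.6 to 139 CPM for basal, 11.2 to 99.0 for fibroblast (COL1A2 at 0) and 2.01 to 37.5 for blood and endothelial genes, and their part in the values of the 10 genes was not tested.

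The genes whose log2 level followed each set most closely over the 12 libraries were picked from 10190 better expressed genes. For the AKR1C sum they were the interferon-induced genes IFIT1 (r = 0.983), OASL (0.974) and IFIT3 (0.961). IFIT1 stood at 200.1 and 201 CPM under LNCaP siFOXA1 and at 5.02 and 2.88 under siControl, and the part of this response in the AKR1C rise was not tested. For the UGT2B sum they were ST3GAL1 (0.986), PTPRR (0.979) and DICER1 (0.978), and for SRD5A1 they were TAOK3 (0.963), ANKH (0.962) and FRMD8 (0.962). These correlations describe 6 groups measured in pairs, all points coming from the same libraries.

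The authors' deposited tables list 6 and 8 of the 10 genes for siCREB1 and siFOXA1 in abl, and 5 and 8 in LNCaP, each with the sign found here. In the authors' deposited table AKR1C3 rose by 3.21 on the log2 scale under LNCaP siFOXA1 and UGT2B10 fell by 5.11. AKR1C2 under LNCaP siFOXA1, called here, is not listed in the authors' deposited table.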

How the data were processed

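RNA was sequenced from 6 groups with 2 libraries in each. The authors deposited raw counts for every gene. The submitters' processing notes list, with no roles, HTSeq 0.5.3p9, TopHat2 2.0.8, Bowtie2 2.1.0, CASAVA 1.8 and edgeR 3.0.6, and the build hg19. Annotation, strand setting and the treatment of reads fitting several copies are not given in the sources used here. Columns headed SIC were taken as siControl, and the 8 repeated control columns were identical. Reads in no feature (54.8% to 58.3%) and ambiguous reads (0.77% to 0.92%) were left out. The authors' deposited tables give log2 fold changes and p-values. Peak lists were not used here.

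All 12 libraries entered 1 edgeR 4.0.16 fit (R 4.3.3; TMM scaling, filterByExpr, quasi-likelihood F-test, 6 residual degrees of freedom, 15550 genes). SE was taken as |log2 change| divided by √F. CPM are TMM-scaled. Counting intervals are 95% exact binomial and cover counting error only. Promoter windows were aligned globally with Biopython 1.88. The fit was tested on simulated data with 200 changed genes.

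The 10 genes and the pathway lists were chosen with earlier results of these data known. Named genes are the 10, per list and comparison up to 2 called genes of largest change (mean log2 CPM 0 or more), and per pattern the 3 genes most like it (mean log2 CPM 3 or more). UGT2A3, TMPRSS11E, YTHDC1, KLF6, AKR1C4, AKR1E2, AKR1D1, UGT1A6, UGT1A7, CSF3R, KLK3, APOB and COL1A2 were named besides, after their values were seen. The lists were steroid supply and androgen synthesis, 5-alpha and 5-beta reductases, hydroxysteroid dehydrogenases, other aldo-keto reductases, other UDP-glucuronosyltransferases, glucuronic acid supply and removal, sulfation, transporters, NRF2-responsive genes, androgen receptor targets, liver genes and the luminal, basal, fibroblast, and blood and endothelial markers. Alternatives were other scalings, filters and tests, summed copies, a replicate block and leaving out each library. Some items of the lists are not reported here.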

Additional observations from a re-analysis of the deposited data

Results flagged for a closer look

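The following 7 values differed between abl and LNCaP by edgeR's test of the difference of effects (abl minus LNCaP, Benjamini-Hochberg over all tested genes). Under siFOXA1 UGT2B15 was at 1.73 (adjusted p = 0.000131), with 30.1 and 28.7 CPM left in LNCaP and 89.7 and 64.7 in abl, and UGT2B11 at 2.33 (adjusted p = 0.0044). UGT2B28 was at 3.17 (adjusted p = 0.0259), over 2 counts in LNCaP, and lost its call without the first LNCaP siFOXA1 library (2.30, adjusted p = 0.111), the first abl siControl library (3.07, adjusted p = 0.0648) or the second abl siFOXA1 library (2.80, adjusted p = 0.148). AKR1C2 was at -1.17 (adjusted p = 0.0267) and missed with DESeq2 (adjusted p = 0.19). AKR1C1 was at -1.35 (adjusted p = 0.0479) and missed with DESeq2 (adjusted p = 0.171), limma-voom (0.0529) and the replicate block (0.0535). Under siCREB1 AKR1C2 was at -1.99 (adjusted p = 0.00267), not called without both first siControl libraries (-1.77, adjusted p = 0.0602), and UGT2B11 at 1.38 (adjusted p = 0.00358), not called with its copies summed (0.66, adjusted p = 0.148).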

How the results depend on the processing

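Over the alternatives, 1180 of 1301 values of single genes kept their side of the threshold, 84 lost and 31 gained a call, and 6 reversed. Of the 1180, 30 changed sign without being called on either side. The 6 reversals came with related copies summed. Under abl siCREB1 UGT2B11 went to -0.11 (edgeR adjusted p = 0.713) and UGT2B17 to 0.42 (adjusted p = 0.0518). Under abl siFOXA1 UGT2B7 went to -2.89 (adjusted p = 1.07e-06). For abl against LNCaP UGT2B7 and UGT2B10 went to -0.055 (adjusted p = 0.844) and UGT2B17 to -0.26 (adjusted p = 0.188). A summed value belongs to the pooled copies, so it replaces several genes by 1.

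With DESeq2 3 genes were called in abl under siCREB1 and 2 for the line difference under siFOXA1. Without both first siControl libraries, chosen after the data were seen, 4 were called for abl against LNCaP, and 1 and 2 for the line differences under siCREB1 and siFOXA1. Without a low-count filter 4 were called for the siCREB1 line difference, and 4 with the replicate block. Leaving out 1 library at a time gave 3 to 5 called genes for abl siCREB1, 2 to 5 for LNCaP siCREB1, 4 to 7 for abl against LNCaP, 2 to 4 for the siCREB1 line difference and 2 to 4 for the siFOXA1 line difference, and 6 to 7 and 7 to 8 for siFOXA1 in abl and LNCaP. The number of all tested genes called moved with the setting too. With DESeq2 it went from 7962 to 6917 for abl siCREB1 and from 5068 to 4253 for the siFOXA1 line difference. For the siCREB1 line difference it went from 3969 to 4101 without a low-count filter and to 4167 with the replicate block. It also changed with libraries left out. These shifts are therefore not read as particular to the listed genes, and their cause was not tested.

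Library numbers were not taken as pairs, since no label ties them: deviations of same-numbered libraries correlated from -0.165 (LNCaP siControl with siCREB1) to 0.519 (siControl of both lines), with 0.33 and 0.379 between the 2 knockdowns of LNCaP and abl. The replicate block changed 4 of 90 single-gene calls. Counts per gene differed between the libraries of a group by 4.35 to 10.19 times the sampling variance. Alternatives for peaks at these genes were not run. Depth limits values on few counts, such as UGT2B10 and UGT2B17 under LNCaP siFOXA1 (5 counts each) and UGT2B7 in LNCaP.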
